A study of Ovis aries with 12 samples.

Results

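The genes described here make, regulate, carry and move cholesterol in the hippocampus of the ewe. They were chosen by symbol from a list of 32 names, and 29 of these names stood among the symbols of the 33609 genes in the deposited count table. By role, 16 encode enzymes of the synthesis pathway, 1 a branch enzyme, 5 regulators, 4 proteins of lipoprotein export and 3 proteins of transport inside the cell. IDI1, which isomerises the building block of the isoprenoid chain, carried only a gene number in the table and was matched through RefSeq. Its values are given beside the 29 and are not counted among them, and CYP51A1 and CYP46A1 are not analysed here.

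Libraries came from adult Ile-de-France ewes, 6 submitted to chronic stress and 6 controls. The groups were the dorsal hippocampus of stressed ewes, the dorsal hippocampus of control ewes, the ventral hippocampus of stressed ewes and the ventral hippocampus of control ewes, with 3 libraries each. RNA was extracted from both regions of each ewe, and each library is an equal mix of RNA from 2 ewes of a group. What the stress consisted of is not given in the sources used here, nor is whether pools of both regions hold the same ewes. Dorsal libraries carry the prefix DG, which the series explains as dorsal. A p-value here measures the spread between pools, which averages pairs of ewes and treats regions of the same ewes as independent. Levels are given as CPM, counts scaled to a common library total with the TMM factor of each library, so they compare libraries and not genes of different length. A change passes the test, and is called higher or lower, at an adjusted p below 0.05 over the 17806 genes tested, and all 29 genes were among these.

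Brain cholesterol is made in place, since the blood-brain barrier holds back plasma lipoproteins. Its synthesis runs from acetyl-CoA through mevalonate and farnesyl diphosphate to squalene, which is closed to lanosterol and trimmed to cholesterol. The transcription factor SREBF2 drives the genes of this pathway when membrane sterol is low: SCAP escorts it out of the endoplasmic reticulum, and INSIG1 and INSIG2 hold both back when sterol is plentiful. Oligodendrocytes put much of the product into myelin, and astrocytes load it on APOE particles through ABCA1 and ABCG1. Cells that take up such particles release the cholesterol from lysosomes with NPC2 and NPC1.

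FDFT1, SQLE and LSS, which catalyse successive steps from farnesyl diphosphate to lanosterol, were lower in the dorsal than in the ventral hippocampus over both conditions. Their levels were 1.41-fold, 1.34-fold and 1.43-fold lower in dorsal libraries. No other gene of the 29 passed the test. These 3 of 29 genes are 10.3%, beside 4.51% of all tested genes called in either direction and 3.07% called lower in the dorsal region, and 0 of 29 were called higher, beside 1.44% of all genes. In bulk tissue, fewer cells of a type and less RNA per cell cannot be told apart.

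FDFT1, squalene synthase, which commits farnesyl diphosphate to sterols, had 118, 100.1 and 107 CPM in the dorsal stress libraries and 124, 99.8 and 104 CPM in the dorsal control libraries, against 149, 154 and 141 CPM in the ventral stress libraries and 146, 182 and 150.4 CPM in the ventral control libraries. Every dorsal library lay below every ventral library, as also for SQLE and LSS (3 of 29 genes, 10.3%, beside 3.67% of all genes when the libraries are compared within each condition). The log2 fold change of FDFT1 was -0.50 ± 0.11 (SE), adjusted p = 0.0296. SQLE, squalene epoxidase, which adds the oxygen that becomes the sterol hydroxyl group, had 105, 106 and 111 CPM in the dorsal stress libraries and 119, 112 and 107 CPM in the dorsal control libraries, against 137, 161 and 139 CPM in the ventral stress libraries and 139, 156 and 155 CPM in the ventral control libraries. Again no dorsal library reached the lowest ventral library, and the SQLE values within each group lay close together. The log2 fold change of SQLE was -0.43 ± 0.098 (SE), adjusted p = 0.0325. LSS, lanosterol synthase, which closes the ring system, had 66.6, 55.6 and 56.5 CPM in the dorsal stress libraries and 62.3, 49.4 and 61.1 CPM in the dorsal control libraries, against 90.4, 81.7 and 82.6 CPM in the ventral stress libraries and 76.9, 90.3 and 80.2 CPM in the ventral control libraries. The highest dorsal value, in dorsal stress pool 1, was still below the lowest ventral value, in ventral control pool 1. The log2 fold change of LSS was -0.51 ± 0.11 (SE), adjusted p = 0.0275. Each call was lost when some single libraries were left out. Over the 12 fits that leave out 1 library, the adjusted p of FDFT1 was between 0.0238 and 0.102, that of SQLE between 0.0266 and 0.116 and that of LSS between 0.0256 and 0.0958. The log2 fold changes in these fits were -0.54 to -0.44 for FDFT1, -0.45 to -0.39 for SQLE and -0.56 to -0.46 for LSS. FDFT1 kept its call in 4 of the 12 fits, LSS in 3 and SQLE in 1. None of the 29 genes passed without dorsal stress pool 2 or 3, dorsal control pool 2 or 3, ventral stress pool 1, 2 or 3 or ventral control pool 2.

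**Figure D1:**
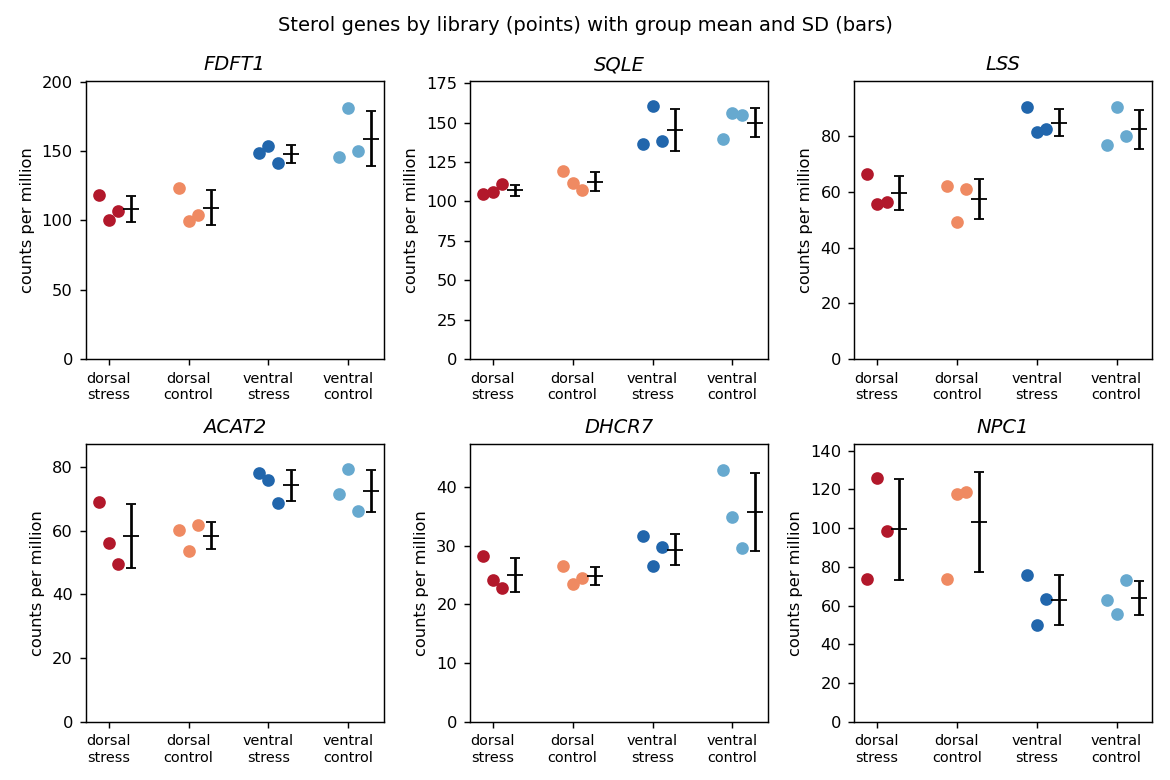
Levels in CPM (vertical axes) of FDFT1, SQLE, LSS, ACAT2, DHCR7 and NPC1 in each library, with the groups along the horizontal axes, points for libraries and bars for the group mean ± SD (n = 3). FDFT1, SQLE and LSS show no overlap between dorsal and ventral libraries, ACAT2 and DHCR7 overlap, and for NPC1 2 dorsal libraries, at 73.8 and 73.5 CPM, lie within the ventral range.

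The other synthesis enzymes mostly had log2 fold changes of the same sign without passing the test. Of all 16 enzymes, FDFT1, SQLE and LSS included, 15 had a log2 fold change below 0, beside 52.7% of all tested genes. The median of the 16, also with these 3, was -0.34, beside -0.017 over all genes. An unadjusted p below 0.05 with a negative sign was seen for 7 of the 29 genes (24.1%), beside 8.09% of all genes. All 7 were synthesis enzymes: the 3 called genes and ACAT2, PMVK, MSMO1 and DHCR7.

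DHCR7, the reductase of the last step in an arm of the pathway, had 28.3, 24.1 and 22.8 CPM in the dorsal stress libraries and 26.4, 23.5 and 24.5 CPM in the dorsal control libraries, against 31.6, 26.5 and 29.8 CPM in the ventral stress libraries and 42.8, 34.9 and 29.5 CPM in the ventral control libraries. The dorsal control libraries lay below all ventral control libraries, whereas dorsal stress pool 1 lay above the lowest ventral stress library. Its log2 fold change was -0.38 ± 0.13 (SE), adjusted p = 0.191. ACAT2, the cytosolic thiolase that joins acetyl-CoA units, had 69.2, 56.1 and 49.4 CPM in the dorsal stress libraries and 60.2, 53.6 and 61.8 CPM in the dorsal control libraries, against 78.1, 76.0 and 68.8 CPM in the ventral stress libraries and 71.7, 79.3 and 66.1 CPM in the ventral control libraries. Its dorsal stress pool 1 lay above the lowest ventral stress library, and its log2 fold change was -0.33 ± 0.12 (SE), adjusted p = 0.203. MSMO1, which oxidises methyl groups of the sterol ring, had 153, 179 and 208 CPM in the dorsal stress libraries and 174, 176 and 176 CPM in the dorsal control libraries, against 182, 209 and 264 CPM in the ventral stress libraries and 210.4, 202 and 290.0 CPM in the ventral control libraries. The highest MSMO1 levels were in the third pool of each ventral group, and its log2 fold change was -0.35 ± 0.14 (SE), adjusted p = 0.289. PMVK, phosphomevalonate kinase, had 3.23, 4.31 and 5.07 CPM in the dorsal stress libraries and 3.35, 3.31 and 3.67 CPM in the dorsal control libraries, against 5.84, 4.03 and 7.18 CPM in the ventral stress libraries and 4.64, 4.37 and 10.7 CPM in the ventral control libraries. Ventral control pool 3 stood above the other PMVK values, and the log2 fold change was -0.69 ± 0.27 (SE), adjusted p = 0.255.

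The remaining enzymes had adjusted p-values of at least 0.399. HMGCS1, the synthase upstream of mevalonate, had 247 to 532 CPM in dorsal libraries and 277 to 762 CPM in ventral ones and a log2 fold change of -0.40 ± 0.29. MVK, mevalonate kinase, had 10.6 to 21.8 CPM in dorsal libraries and 9.91 to 30.8 CPM in ventral ones and -0.37 ± 0.31, and MVD, the decarboxylase that makes the first isoprenoid unit, had 39.9 to 93.4 CPM in dorsal libraries and 25.1 to 108 CPM in ventral ones and -0.054 ± 0.36. For these genes the dorsal range lay mostly inside the ventral range. FDPS, which builds farnesyl diphosphate, had 83.8 to 147 CPM in dorsal libraries and 96.9 to 159 CPM in ventral ones and a log2 fold change of -0.26 ± 0.19. IDI1 had 66.9 to 96.7 CPM in dorsal libraries and 61.1 to 121 CPM in ventral ones and a log2 fold change of -0.31 ± 0.18. Among the late enzymes that reshape the sterol ring, EBP, an isomerase, had 23.1 to 27.6 CPM in dorsal libraries and 26.4 to 36.6 CPM in ventral ones and a log2 fold change of -0.26 ± 0.12. NSDHL, a decarboxylating dehydrogenase, had 66.5 to 75.3 CPM in dorsal libraries and 73.3 to 84.2 CPM in ventral ones and -0.14 ± 0.095, and HSD17B7, a ketone reductase, had 12.9 to 18.1 CPM in dorsal libraries and 14.2 to 19.5 CPM in ventral ones and -0.14 ± 0.14. SC5D, a desaturase, had 53.9 to 137 CPM in dorsal libraries and 49.9 to 173 CPM in ventral ones and a log2 fold change of -0.23 ± 0.34. TM7SF2, a sterol reductase, was the enzyme with the log2 fold change closest to 0: it had 53.9 to 119 CPM in dorsal libraries and 44.8 to 115 CPM in ventral ones, and the 95% interval of its log2 fold change ran from -0.63 to 0.63. GGPS1, which diverts farnesyl diphosphate to protein prenylation, had 10.5 to 12.7 CPM in dorsal libraries and 8.94 to 14.1 CPM in ventral ones and a log2 fold change of -0.072 ± 0.15 (SE), adjusted p = 1.00.

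Averaged over the 16 enzymes after centring each gene on its mean over the 12 libraries, the log2 level was -0.25 to -0.044 in dorsal libraries and 0.11 to 0.20 in ventral ones. Summed over the enzymes, dorsal libraries held 1302 to 1527 CPM and ventral libraries 1549 to 2023 CPM. On both scales, which include FDFT1, SQLE and LSS, the regions did not overlap, although the calls rest on these 3 genes. HMGCS1, which was not called, made up 762 of the 2023 CPM in ventral control pool 3. It made up 532 of the 1527 CPM in dorsal stress pool 3. How often other sets of 16 genes part the regions was not tested.

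**Figure D2:**
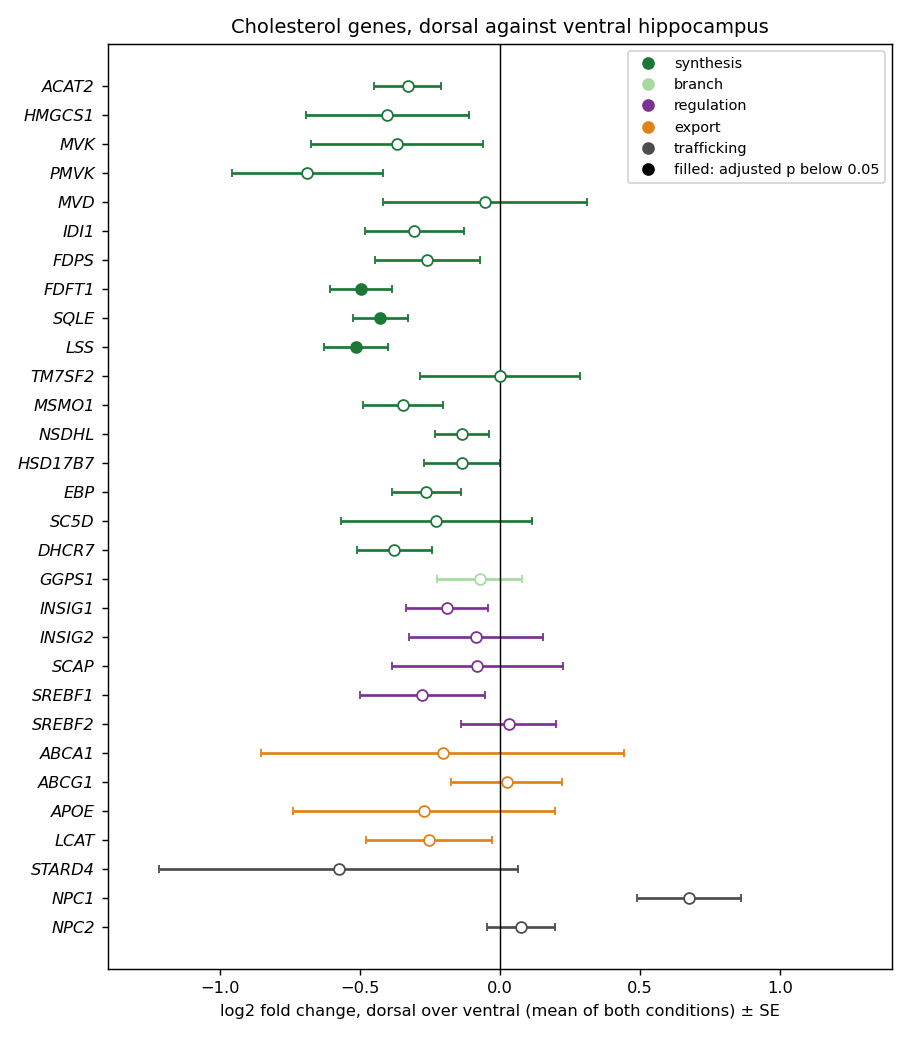
Log2 fold change of dorsal over ventral hippocampus (horizontal axis, mean of both conditions, bars ± SE) for the 29 genes and IDI1 in pathway order, coloured by role, with filled points for genes past an adjusted p of 0.05. Filled points are FDFT1, SQLE and LSS, the synthesis enzymes other than TM7SF2 lie left of 0, and NPC1 lies furthest right at 0.67.

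None of the 5 regulators passed the test, and their log2 fold changes lay between -0.28 for SREBF1 and 0.030 for SREBF2. SREBF2, the transcription factor of the sterol genes, averaged 187 ± 27.3 CPM in dorsal stress and 177 ± 29.4 CPM in dorsal control, against 170.0 ± 10.6 CPM in ventral stress and 186 ± 62.0 CPM in ventral control (SD, n = 3 each), with a log2 fold change of 0.03 ± 0.17 (SE), adjusted p = 1.00. The 95% interval of that log2 fold change was -0.34 to 0.41, so a difference of the size seen in FDFT1, SQLE and LSS lies outside it. SREBF1, its relative that favours fatty acid genes, averaged 27.6 ± 3.41 CPM in dorsal stress and 29.5 ± 3.64 CPM in dorsal control, against 36.8 ± 10.1 CPM in ventral stress and 32.4 ± 12.5 CPM in ventral control, with a log2 fold change of -0.28 ± 0.22 (SE), adjusted p = 0.811. SCAP, the escort protein, averaged 81.7 ± 35.1 CPM in dorsal stress and 83.9 ± 30.2 CPM in dorsal control, against 81.5 ± 18.1 CPM in ventral stress and 94.1 ± 49.0 CPM in ventral control, and its log2 fold change was -0.08 ± 0.31 (SE), adjusted p = 1.00. INSIG1, the retention protein whose gene is itself a target of the SREBF factors, averaged 31.8 ± 5.70 CPM in dorsal stress and 32.5 ± 3.24 CPM in dorsal control, against 40.3 ± 5.55 CPM in ventral stress and 33.3 ± 4.95 CPM in ventral control, with a log2 fold change of -0.19 ± 0.15 (SE), adjusted p = 0.794. INSIG2, the related retention protein, had 20.2 to 37.7 CPM in dorsal libraries and 19.0 to 43.9 CPM in ventral ones and a log2 fold change of -0.087 ± 0.24. The regulators' groups overlapped in both conditions.

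None of the 4 export genes passed the test between regions. APOE, the main lipoprotein of brain particles, averaged 1159 ± 450.4 CPM in dorsal stress and 1388 ± 407 CPM in dorsal control, against 1567 ± 853 CPM in ventral stress and 1497 ± 1081 CPM in ventral control (SD, n = 3 each), and its log2 fold change was -0.27 ± 0.47 (SE), adjusted p = 1.00. ABCA1, the pump that loads lipid on APOE, averaged 54.8 ± 36.3 CPM in dorsal stress and 38.9 ± 20.4 CPM in dorsal control, against 56.5 ± 44.8 CPM in ventral stress and 49.9 ± 57.0 CPM in ventral control, with a log2 fold change of -0.20 ± 0.65 (SE), adjusted p = 1.00. The SDs of both genes were large beside their means, so a regional difference could not be resolved with 3 pools a group. ABCG1, a further efflux pump, had 40.6 to 65.1 CPM in dorsal libraries and 41.3 to 77.2 CPM in ventral ones and a log2 fold change of 0.024 ± 0.20 (SE), adjusted p = 1.00. LCAT, which esterifies cholesterol on the particles, had 26.7 to 58.9 CPM in dorsal libraries and 31.3 to 79.1 CPM in ventral ones and a log2 fold change of -0.25 ± 0.23 (SE), adjusted p = 0.865.

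Among the transport genes, NPC1, the lysosomal membrane protein that passes cholesterol on to other membranes, was the gene furthest from the synthesis enzymes. It had 73.8, 126 and 98.6 CPM in the dorsal stress libraries and 73.5, 117 and 119 CPM in the dorsal control libraries, against 76.0, 49.9 and 63.2 CPM in the ventral stress libraries and 62.7, 55.8 and 73.1 CPM in the ventral control libraries. In both dorsal groups pool 1 was close to the ventral values, and the other 4 dorsal libraries lay above all ventral ones. Its log2 fold change was 0.67 ± 0.19 (SE), adjusted p = 0.0723, which misses the threshold. DESeq2 gave an adjusted p of 0.0105, but only 2 of the 11 alternatives that keep all libraries called NPC1. Over the 12 fits that leave out 1 library, NPC1 was called in 1 (adjusted p 0.0479 to 0.197). NPC2, its soluble partner, had 75.9 to 94.6 CPM in dorsal libraries and 65.0 to 91.3 CPM in ventral ones and a log2 fold change of 0.076 ± 0.12 (SE), adjusted p = 1.00. STARD4, a soluble sterol carrier, had 2.09 to 12.0 CPM in dorsal libraries and 2.09 to 19.4 CPM in ventral ones and a log2 fold change of -0.58 ± 0.64 (SE), adjusted p = 0.954, so its pools differed far more than its regions.

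Within each condition the region comparison rested on 3 libraries a side, and no gene of the 29 passed the test. Over all tested genes, 0.444% were called in stressed ewes and 1% in control ewes. In stressed ewes the log2 fold changes of FDFT1, SQLE and LSS were -0.45, -0.44 and -0.51, and in control ewes -0.54, -0.41 and -0.52. Their adjusted p-values were 0.357, 0.274 and 0.271 in stressed ewes and 0.186, 0.285 and 0.227 in control ewes. In stressed ewes, FDFT1, SQLE and LSS were the only genes of the 29 with all dorsal libraries below all ventral ones (10.3%, beside 7.67% of all genes). In control ewes, 9 of the 29 genes had all dorsal libraries below all ventral ones (31%, beside 6.22% of all genes), namely ACAT2, PMVK, FDFT1, SQLE, LSS, MSMO1, NSDHL, EBP and DHCR7, each a synthesis enzyme. NPC1 alone had all dorsal libraries above all ventral ones in control ewes, with 73.5 CPM in the lowest dorsal and 73.1 CPM in the highest ventral control library (1 of 29 genes, beside 5.44% of all genes). The sign of the region difference was the same in both conditions for 25 of 29 genes (86.2%), beside 72.1% of all genes.

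Markers of neurons, astrocytes and oligodendrocytes were counted in all 12 libraries, and some differed between the regions. All 8 oligodendrocyte markers had log2 fold changes above 0, and MOBP, a myelin protein, was called, at 0.92 ± 0.19 (SE), adjusted p = 0.0232. The oligodendrocyte markers summed to 6869 to 11305 CPM in dorsal libraries and 4019 to 8478 CPM in ventral ones. Of the 8 astrocyte markers, 0 were called, and their sums were 14897 to 20008 CPM in dorsal and 15786 to 20051 CPM in ventral libraries, GFAP making up the largest part. Averaged over these markers after centring each, the log2 level was -0.40 to 0.19 in dorsal and -0.31 to 0.44 in ventral libraries. Choroid plexus markers, with TTR the largest part, summed to 372 to 2843 CPM in dorsal and 52.0 to 426 CPM in ventral libraries. Of these 6 markers TTR and CLIC6 were called higher, at log2 fold changes of 3.54 ± 0.68 and 1.87 ± 0.32. FOLR1 had 1.01 ± 0.33 and OTX2 2.43 ± 1.11, whereas KL had -1.69 ± 0.65 (SE) at an unadjusted p of 0.0255 and KCNJ13 -0.14 ± 0.31, and OTX2 was listed at 0 in 5 libraries. Of 5 tested meningeal markers 4 were called lower in the dorsal region, with sums of 129 to 202 CPM against 303 to 525 CPM in ventral libraries. Of 5 excitatory neuron markers 2 were called higher, CAMK2A and NEUROD2, with sums of 3647 to 4371 CPM in dorsal and 2355 to 3238 CPM in ventral libraries. GAD1 was the called gene of 3 inhibitory neuron markers and was lower in the dorsal region, as was DSP, at -1.92 ± 0.38, among 4 dentate granule cell markers. The log2 fold changes of the other granule cell markers were 1.32 ± 0.75 for PROX1, -0.39 ± 0.34 for C1QL2 and -1.30 ± 0.65 for CALB1. Of the 4 endothelial, 6 microglial, 4 mural, 4 ependymal, 4 oligodendrocyte precursor and 2 tested red cell markers, 0 were called. Over the 12 fits that leave out 1 library, NEUROD2 kept its call in 2, MOBP and CAMK2A in 5, COL1A1 in 6, GAD1 in 9 and DSP in 10, and TTR, CLIC6, DCN, COL1A2 and SLC6A13 in all 12.

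Ventral control pool 1 had an oligodendrocyte sum of 8478 CPM, within the dorsal range, and a choroid plexus sum of 426 CPM, also within it. Its meningeal sum, 303 CPM, was above the dorsal range. FDFT1, SQLE and LSS in that pool were above every dorsal library. These are values of 1 library, and whether its cell make-up bears on them was not tested. With the oligodendrocyte marker level as a covariate, the log2 fold changes were -0.23 for FDFT1, -0.31 for SQLE and -0.35 for LSS, and that of NPC1 was 0.13. In that fit 0 of the 29 genes and 0 of all genes passed the test. With the choroid plexus marker level as a covariate, the log2 fold changes were -0.51 for FDFT1, -0.50 for SQLE and -0.50 for LSS, with adjusted p-values of 0.593, 0.447 and 0.648, and 0 of the 29 genes and 11 of all genes passed. The part of neuronal and meningeal markers in the differences was not tested.

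Several of the 29 genes, among them ABCA1, STARD4 and APOE, varied more between pools of the same group than between regions. The first principal component of all tested genes held 50.04% of the variance and ran within each group: its scores were -70.2, 26.2 and 64.0 in dorsal stress, -81.3, 27.5 and 4.06 in dorsal control, 3.62, -35.6 and 80.8 in ventral stress, and -103, -21.0 and 105 in ventral control. ABCA1 had 16.0, 60.4 and 88.0 CPM in the dorsal stress libraries and 16.6, 56.7 and 43.3 CPM in the dorsal control libraries, against 41.9, 20.9 and 107 CPM in the ventral stress libraries and 10.7, 23.7 and 115 CPM in the ventral control libraries. The highest ABCA1 level was 10.8 times the lowest, and both stood in the ventral control group. STARD4 had 2.09, 7.10 and 12.0 CPM in the dorsal stress libraries and 2.13, 6.68 and 5.16 CPM in the dorsal control libraries, against 7.24, 2.92 and 15.5 CPM in the ventral stress libraries and 2.09, 3.87 and 19.4 CPM in the ventral control libraries. Its highest level was 9.30 times its lowest, and its order of libraries was close to that of ABCA1. APOE ran the other way, with 1615, 1149 and 714 CPM in the dorsal stress libraries and 1774, 962 and 1428 CPM in the dorsal control libraries, against 1837, 2252 and 613 CPM in the ventral stress libraries and 2423, 1760.2 and 309 CPM in the ventral control libraries. The APOE level of ventral control pool 1 was 7.85 times that of pool 3. Astrocyte markers also differed between these pools and not all one way: AQP4 had 11.7 CPM in pool 1 and 115 CPM in pool 3, SLC1A2 643 and 2915 CPM, GJA1 174 and 470.0 CPM, GFAP 11800.4 and 9802 CPM, and ALDOC 3291 and 1819 CPM. Their part in the spread of APOE, ABCA1 and STARD4 was not tested.

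**Figure D3:**
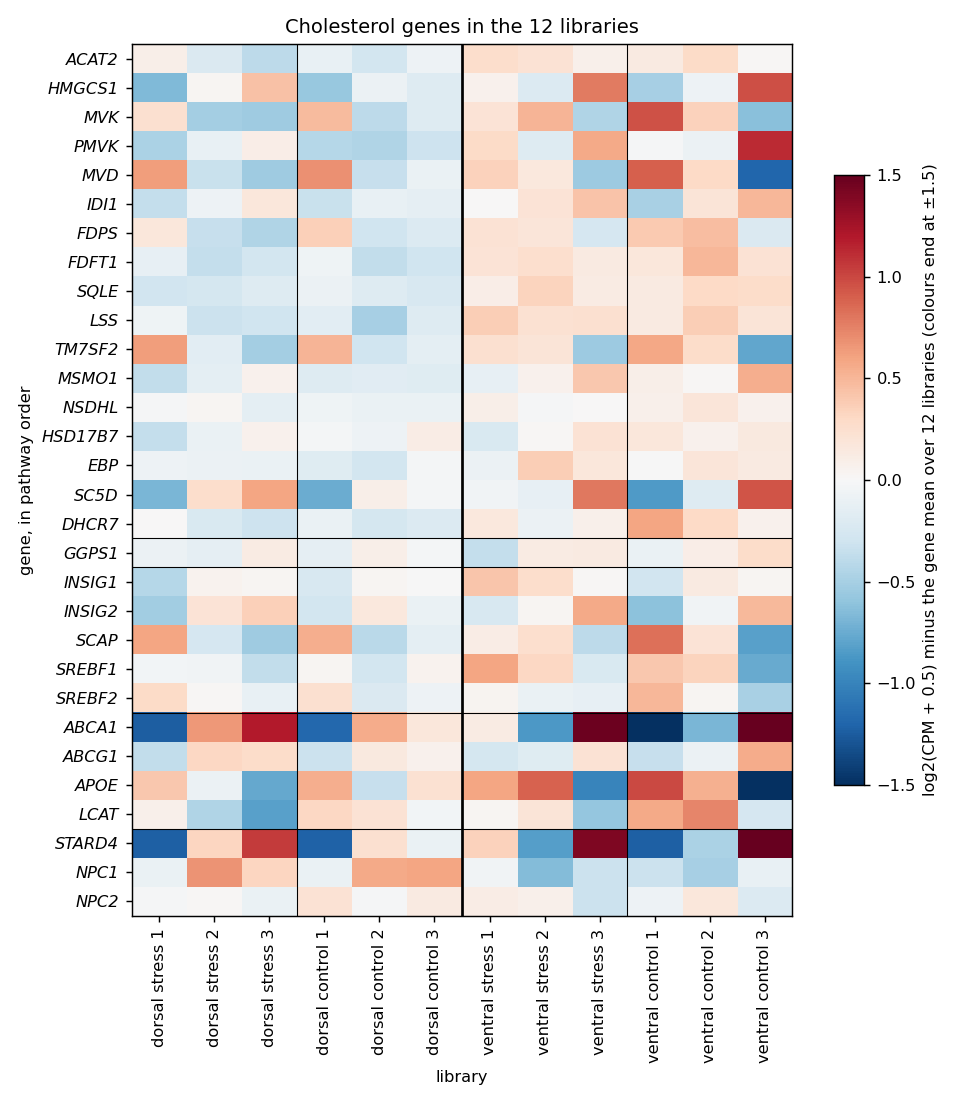
Level of the 29 genes and IDI1 (rows, in pathway order) in the 12 libraries (columns), coloured by log2(CPM + 0.5) minus the gene's mean over the libraries, with colours ending at 1.5 on either side of 0. FDFT1, SQLE and LSS are on the blue side in every dorsal and on the red side in every ventral library, in some libraries close to white. ABCA1, STARD4, APOE, MVD and SC5D change sign between pools of the same group.

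Over the 12 libraries, 14 of the 29 genes (48.3%) varied by a factor of 2 or more, beside 74.4% of all tested genes, and the median ratio of highest to lowest library was 1.98, beside 2.98 over all genes. SC5D (3.48), HMGCS1 (3.08) and PMVK (3.32) reached their highest level in ventral control pool 3. MVD (4.31), SCAP (3.14) and MVK (3.10) reached their lowest there and their highest in ventral control pool 1. In ventral control pool 3, 6 of the 29 genes were at least 2 times and 6 at most 0.5 times their level in ventral control pool 1. The steadiest genes were NSDHL (1.27), NPC2 (1.46), HSD17B7 (1.51) and SQLE (1.54). FDFT1 and LSS varied by 1.82 and 1.83, a span that includes their regional difference. Total counts were 12254743 to 53775720 a library, with every dorsal control library deeper than every dorsal stress library. What underlies the component was not tested.

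**Figure D4:**
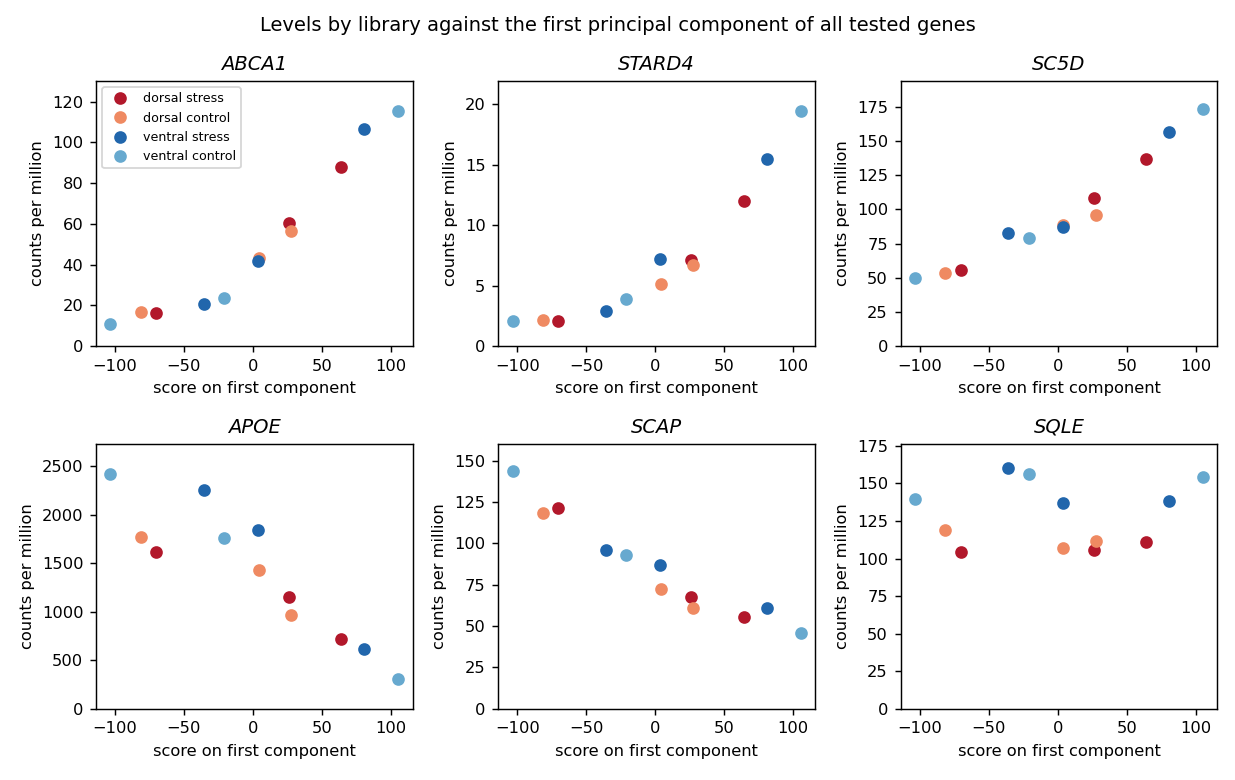
Levels in CPM (vertical axes) of ABCA1, STARD4, SC5D, APOE, SCAP and SQLE in the 12 libraries against the library's score on the first principal component of all tested genes (horizontal axes, no unit), coloured by group. ABCA1, STARD4 and SC5D are highest at the largest score and APOE and SCAP lowest there, while SQLE separates the regions at every score, with 119 CPM in the highest dorsal and 137 CPM in the lowest ventral library.

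Between stressed and control ewes, none of the 29 genes passed the test in the dorsal region, in the ventral region or in the mean of both. Over all genes the same test called 0 (0%) in each of these comparisons, with 152, 142 and 308 genes at an unadjusted p below 0.05. DESeq2 called 1, 1 and 14 genes over the whole table and 0 of the 29. Since the dorsal control libraries were deeper than the dorsal stress libraries, counts were also thinned to 12254743 a library, and 0 of the 29 genes passed then too. The difference between the stress effects of the dorsal and ventral regions was called for 0 genes, with 46 at an unadjusted p below 0.05 and 0 by DESeq2.

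LCAT had the lowest p-value of the 29 genes under stress. It had 49.9, 34.5 and 26.7 CPM in the dorsal stress libraries, against 58.9, 54.8 and 46.0 CPM in the dorsal control libraries, and 48.2, 54.1 and 31.3 CPM in the ventral stress libraries, against 70.2, 79.1 and 39.6 CPM in the ventral control libraries. The stress and control libraries overlapped in both regions, with dorsal stress pool 1 above the lowest dorsal control library. Between pools of the same number, the stress pool was the lower in all 6 pairs. This held for 2 of the 29 genes, LCAT and FDPS (6.9%, beside 2.68% of all genes). Such pools hold different ewes, and some pools of different numbers deviated together more closely, so the pairing by number is not established. The log2 fold change of LCAT over both regions was -0.51 ± 0.23 (SE) at an unadjusted p of 0.0457 and an adjusted p of 1.00. Among the alternatives 1 called LCAT, the fit with the first residual component as a covariate (adjusted p = 0.0366). That component was taken from these same data after subtracting the group means. It takes up spread within groups by construction, so this call is no independent support. With the replicate number as a block the adjusted p of LCAT was 0.947. The log2 fold change was -0.52 (95% interval -1.23 to 0.18) in the dorsal region and -0.50 (-1.20 to 0.21) in the ventral region. In the mean of both regions, LCAT was the single gene of the 29 genes with an unadjusted p below 0.05 (3.45%, beside 1.73% of all genes). In the dorsal and in the ventral region, 0 of the 29 genes had such a p, beside 0.854% and 0.797% of all genes.

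FDFT1, SQLE and LSS, which differed between regions, had log2 fold changes under stress close to 0 in both. The 95% interval of the log2 fold change in the dorsal region was -0.36 to 0.33 for FDFT1, -0.38 to 0.23 for SQLE and -0.30 to 0.40 for LSS. In the ventral region it was -0.45 to 0.24 for FDFT1, -0.35 to 0.26 for SQLE and -0.31 to 0.39 for LSS. A stress effect as large as the regional difference of LSS, -0.51, lies outside both of its intervals, while smaller changes remain within them. Over the 16 enzymes, log2 fold changes under stress ran from -0.24 for MVK to 0.33 for SC5D in the dorsal region and from -0.29 for DHCR7 to 0.11 for SC5D in the ventral region. SREBF2 had a log2 fold change of 0.079 ± 0.24 (SE) in the dorsal and -0.13 ± 0.24 in the ventral region, and INSIG1 -0.032 ± 0.21 and 0.28 ± 0.21. For SREBF1 the values were -0.097 ± 0.31 and 0.18 ± 0.31, and for SCAP -0.038 ± 0.43 and -0.21 ± 0.43. The intervals of the genes that varied most between pools were wide: ABCA1 ran from -1.53 to 2.52 in the dorsal and from -1.84 to 2.20 in the ventral region, and APOE from -1.72 to 1.20 and from -1.39 to 1.53. Of the differences between the stress effects of the regions, that of DHCR7 had the lowest p, at 0.30 ± 0.27 (SE) and an unadjusted p of 0.285.

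**Figure D5:**
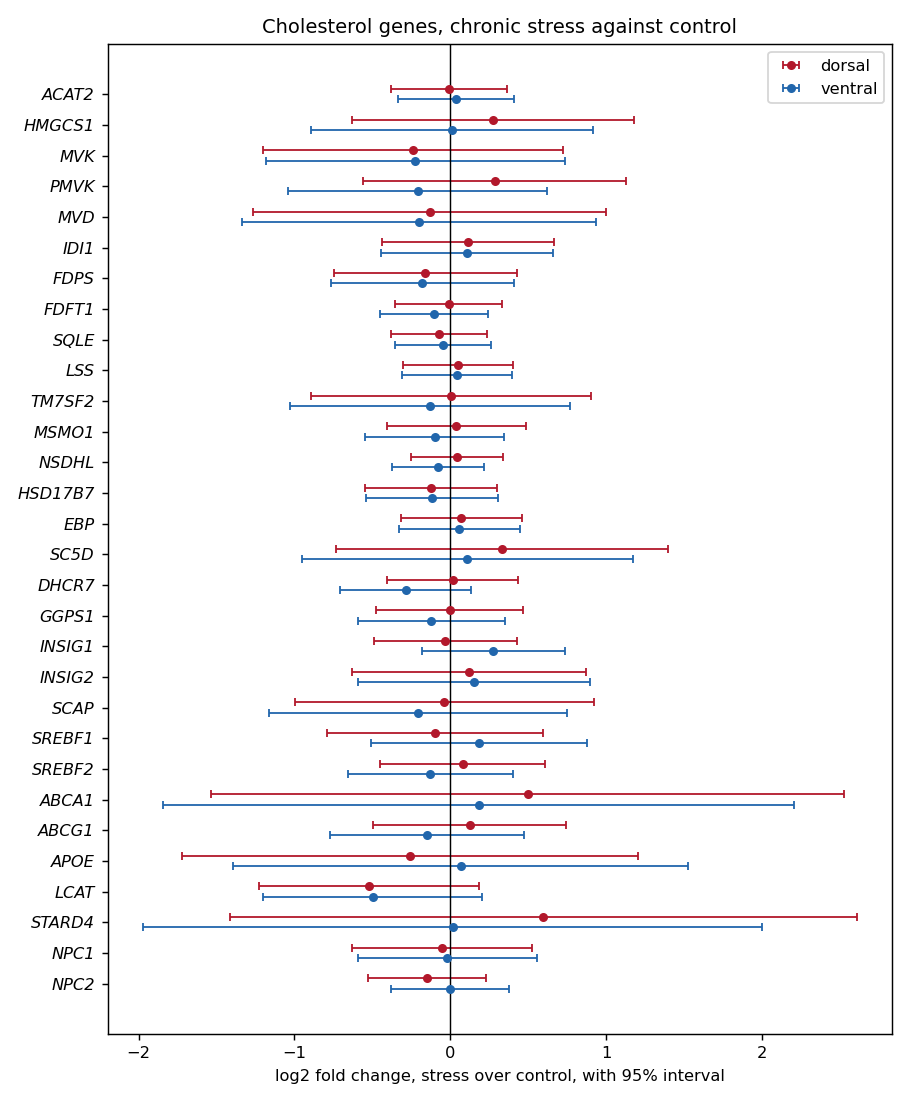
Log2 fold change of stress over control (horizontal axis) with its 95% interval for the 29 genes and IDI1 (rows) in the dorsal and the ventral region. Every interval contains 0, and the intervals of ABCA1, APOE and STARD4 are the widest.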

How the data were processed

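Gene counts of 12 libraries of total RNA, made with a stranded kit that selects polyadenylated RNA, were deposited by the authors as raw whole numbers, 1 column per library. The submitters' processing notes name TopHat2 2.1.1 with Bowtie2 2.3.5.1 and featureCounts 2.0.0, besides bcl2fastq 2.20, FastQC and SAMtools 1.9. Neither genome build nor annotation nor strand setting is given in the sources used here, so counts may mix a gene with its antisense partner, and those of genes with near-identical copies are uncertain. Of the 33609 genes, 9337 had no count. Symbols came from the table, and 412 names came from the RefSeq table of gene IDs. No sequences are printed, and a list of further sterol genes is not reported here.

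Columns were matched to libraries by their names and grouped by region and condition (3 libraries in each of 4 groups). Counts were fitted in R 4.3.3 with edgeR 4.0.16 (quasi-likelihood test, robust), filtered by filterByExpr (17806 genes kept), scaled by TMM, with 1 mean per group, and p-values were adjusted by Benjamini-Hochberg over all tested genes. The SE is the size of the log2 fold change over the square root of F, and intervals are from the t distribution. DESeq2 1.42.0, limma 3.58.1 (voom), other scalings and filters, covariates, replicate blocks and leaving out each library were alternatives. No columns were identical, and the smallest chi-square per degree of freedom between libraries of a group was 20.2.

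The genes, lists and tests were chosen with earlier results of these data known. Genes called, or with an unadjusted p below 0.05 in a region or stress comparison, were to be given by library, the others by range, and the regulators SREBF1, SREBF2, SCAP and INSIG1 with APOE and ABCA1 by group level. Libraries of stressed and control ewes with the same number deviated together from their group means (r = 0.71, 0.32 and 0.28 in the dorsal and 0.24, 0.31 and 0.79 in the ventral region). Of those with different numbers, many had negative r, but some matched more closely than the same number. Dorsal stress pool 3 had r = 0.57 with dorsal control pool 2, and ventral stress pool 2 had r = 0.55 with ventral control pool 1. Same-numbered pools were compared as pairs, but this pairing is not established. The reason for the shared deviation is not given in the sources used here.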

Additional observations from a re-analysis of the deposited data

How the results depend on the processing

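The count of genes called between regions, 3 of 29, stayed at 3 with DESeq2-style size factors in edgeR, with a filter of 1 CPM in 3 libraries, with limma-voom and with counts thinned to the shallowest library, and was 4 with DESeq2. It was 0 without a filter on low counts (adjusted p 0.0566 for LSS, 0.0585 for FDFT1 and 0.0816 for SQLE), 0 with choroid plexus markers and 0 with oligodendrocyte markers as a covariate, and 11 (1 higher, 10 lower) with the first residual component as a covariate. Leaving out a library gave 0 to 3 calls: 0 without dorsal stress pool 2 or 3, dorsal control pool 2 or 3, ventral stress pool 1, 2 or 3 or ventral control pool 2, 2 without dorsal stress pool 1, dorsal control pool 1 or ventral control pool 3, and 3 without ventral control pool 1. Besides FDFT1, SQLE and LSS, these counts include NPC1, called higher in 1 of the 12 fits (adjusted p = 0.0479). In stressed ewes, where 0 genes were called, DESeq2 called 2 and the fit with the first residual component 4. In control ewes, also at 0, these fits called 3 and 8. For stress over both regions, at 0, the fit with the first residual component called 3 (2 higher, 1 lower), among them LCAT at an adjusted p of 0.0366. The first residual component was taken from these same data after subtracting the group means, so it takes up spread within groups by construction. Apart from the covariates' own construction, the cause was not tested. The share of all tested genes called in the same fit is not set beside these counts. A larger count in a fit is therefore not a result about the 29 genes. The other stress counts and the difference of the stress effects stayed at 0 in every alternative run.

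With the replicate number as a block the count between regions was 3. With a replicate block within condition it was 0 (adjusted p 0.0568 for LSS, 0.0687 for FDFT1 and 0.0757 for SQLE). Dorsal and ventral libraries with the same number did not all deviate together (r = 0.21, -0.23 and 0.76 in stressed and 0.72, -0.12 and 0.37 in control ewes), so these numbers were not taken as pairs. The replicate block changed no stress call. No result changed the sign of a called value. Between regions, 22 to 29 of the 29 genes kept the sign of their log2 fold change, the lowest with oligodendrocyte markers as a covariate. With 3 pools a group, small changes of genes that vary between pools, such as ABCA1, STARD4 and APOE, could not be detected.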

Other observations

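Fatty acid genes, many of them targets of the same transcription factors as the sterol genes, had 2 calls among 11 tested (18.2%, beside 4.51% of all tested genes in either direction). FADS1 and FADS2, the desaturases of long-chain polyunsaturated fatty acids, were lower in the dorsal than in the ventral hippocampus. FADS1 had 111, 120.5 and 133 CPM in the dorsal stress libraries and 104, 129 and 117 CPM in the dorsal control libraries, against 176, 156 and 219.8 CPM in the ventral stress libraries and 144, 192 and 240.1 CPM in the ventral control libraries. Its log2 fold change was -0.66 ± 0.15 (SE), adjusted p = 0.0321. FADS2 had 194, 154 and 136 CPM in the dorsal stress libraries and 155, 141 and 156 CPM in the dorsal control libraries, against 234, 213 and 193 CPM in the ventral stress libraries and 263, 260.4 and 202 CPM in the ventral control libraries. Its log2 fold change was -0.54 ± 0.13 (SE), adjusted p = 0.0368. Over the 12 fits that leave out 1 library, FADS1 kept its call in 2 (without ventral stress pool 2 or ventral control pool 1; adjusted p 0.00989 to 0.0954) and FADS2 in 2 (without dorsal stress pool 1 or ventral control pool 3; adjusted p 0.0238 to 0.115). Both calls were also lost with choroid plexus or oligodendrocyte markers as a covariate, and that of FADS2 without a filter on low counts (adjusted p = 0.0631). THRSP, a lipogenic protein, had a log2 fold change of -0.96 ± 0.26 (SE), adjusted p = 0.0677, which misses the threshold. The median log2 fold change of the 11 genes was -0.15, beside -0.017 over all tested genes. Of the 11, 7 had a log2 fold change below 0 (63.6%, beside 52.7% of all tested genes). The other 4 lay above 0, the highest at 0.55.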
